A study of Homo sapiens with 4 samples.

Results

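Deoxynucleotide supply was examined through 10 genes, RRM1, RRM2, RRM2B, TK1, TK2, DTYMK, DCTD, DUT, DCK and SAMHD1, in BT474 cells treated with the AMPK activator AICAR. Every probe set annotated to exactly 1 of these symbols was taken, which gave 10 of 19775 genes with such a probe set and 29 of the 54675 probe sets on the array. A probe set is a group of short array probes that together read 1 transcript region, and each of the 10 genes had between 1 and 6. BT474 is a human breast cancer cell line, long established, that carries extra copies of ERBB2. AICAR is a nucleoside that cells phosphorylate to ZMP, which mimics AMP and activates the kinase AMPK. The 2 groups were BT474 cells exposed to 0.5 mM AICAR for 24 h and BT474 cells exposed to vehicle for 24 h, with 2 Affymetrix U133 Plus 2.0 arrays each. Both groups were grown in DMEM, and the labels name no allele, transgene or further agent. The labels do not say whether the 2 arrays of a group stem from different dishes, so each p-value reflects the scatter of these samples alone, and that scatter may be technical.

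Ribonucleotide reductase turns ribonucleotides into the deoxynucleotides from which DNA is made. It joins the catalytic subunit RRM1 to a small, radical-bearing subunit, which is RRM2 in S phase and RRM2B, also called p53R2, outside S phase and for mitochondrial DNA. Thymidine nucleotides also come through salvage by thymidine kinases, cytosolic TK1 and mitochondrial TK2, and through deamination of dCMP by DCTD and hydrolysis of dUTP by DUT, both of which give dUMP for thymidylate synthase. DTYMK phosphorylates dTMP, DCK phosphorylates deoxycytidine and purine deoxynucleosides, and SAMHD1 breaks deoxynucleoside triphosphates down again.

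Medians over all probe sets were 6.40 and 6.38 (log2) on the AICAR arrays and 6.37 and 6.38 on the vehicle arrays. All 9 luminal breast line markers, among them ERBB2, KRT8 and GATA3, lay above the bound for dim probe sets (log2 5.21, the 30th percentile), with group means of 9.25 to 14.21 under AICAR and 9.30 to 14.09 under vehicle. Of 11 stromal, endothelial and blood markers 8 lay above that bound, with means of 4.63 to 7.23 under AICAR and 4.43 to 7.32 under vehicle. LUM, CDH5 and PTPRC lay below it, and the highest of the 11 stood at percentile 64.9 of all probe sets, where the lowest luminal marker stood at 86.4. Of 38229 probe sets above the bound, limma called 924 lower and 545 higher in AICAR-treated cells (adjusted p under 0.05), which is 2.42% and 1.43%. In bulk RNA, fewer cells of a state and less RNA per cell cannot be told apart, and the share of cells in S phase was not measured.

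Among the members only the small reductase subunit RRM2 was called lower, in 1 of its 2 probe sets. RRM1 201476_s_at came near the threshold (log2 -0.39, limma adjusted p = 0.0600). Of the 25 member probe sets above the bound for dim probe sets 1 was lower and 0 were higher (limma), against 2.42% and 1.43% of all probe sets, so the count itself is close to the background. At an unadjusted p under 0.05, 7 were lower and 0 higher, beside 12.2% and 8.44% of all probe sets. The 7 were both probe sets of RRM1, both of RRM2, 2 of DUT and 1 of DTYMK. The member count moved with the settings. It was 2 lower with a dim filter at the 50th percentile, where 5.52% of all probe sets were lower, 2 at an adjusted p under 0.1 (5.47% of all), 7 with a variance trend (7.36% of all), 1 with the replicate number as a block (1.33% of all) and 0 without any 1 array.

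Both AICAR arrays lay below both vehicle arrays in 12 of the 25, or 48%, where the background was 27%, and above them in 3, or 12%, where the background was 24.5%. The 12 belong to RRM1, RRM2, TK1, DTYMK, DUT, DCK and SAMHD1, and the 3 to TK2 and DCTD. The median log2 difference, AICAR minus vehicle, was -0.10 over the 25 probe sets and 0.0037 over all probe sets tested. Probe sets of 1 gene can read the same transcripts, from the same samples, and are not separate evidence.

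**Figure D1:**
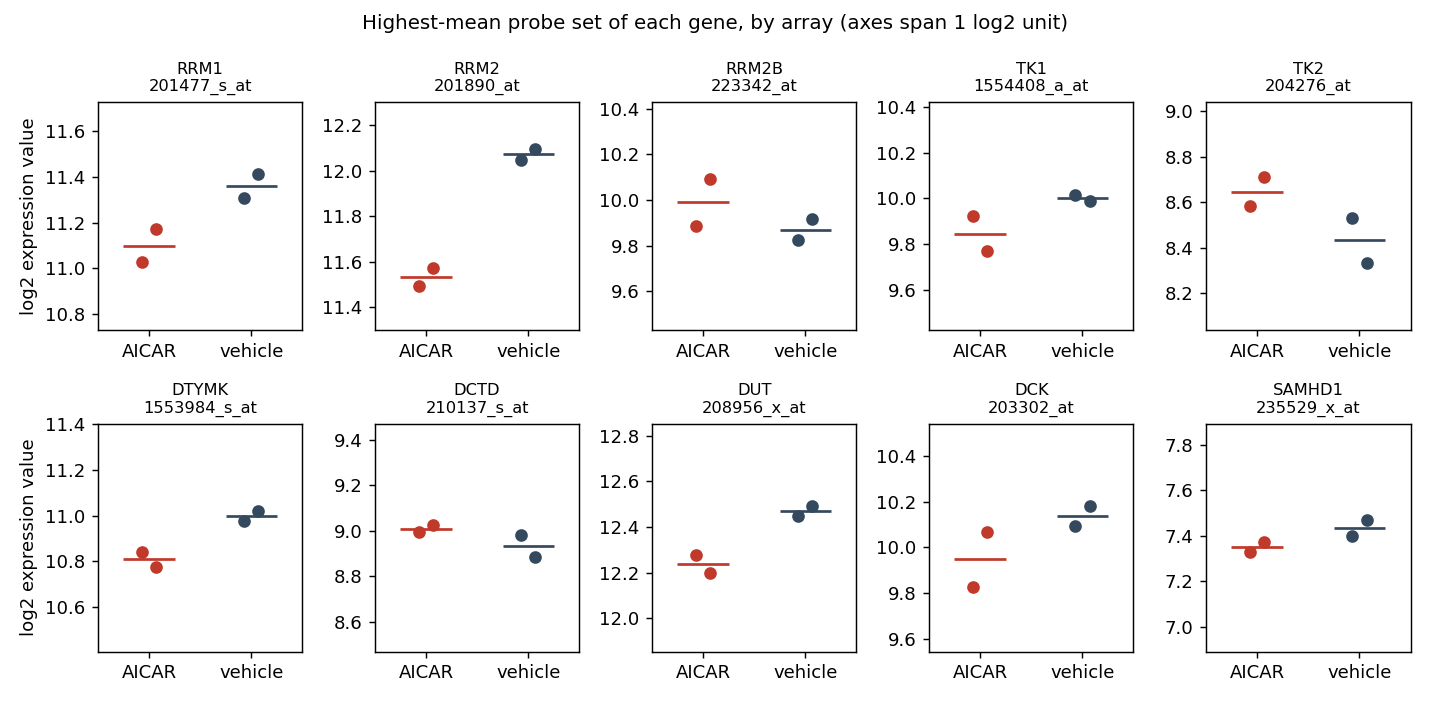
Log2 expression value on each array (points) with the group mean (line) for the probe set with the highest mean of each of the 10 genes, AICAR left and vehicle right; every vertical axis spans 1 log2 unit, and levels are not comparable between panels. The RRM2 arrays stand farthest apart, at 11.49 and 11.57 under AICAR and 12.04 and 12.10 under vehicle, while those of TK2 lie above vehicle under AICAR and those of RRM2B overlap.

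RRM2 carries the tyrosyl radical that starts each round of catalysis, and its amount varies most over the cell cycle. Its brighter probe set, 201890_at, read 11.49 and 11.57 (log2) with AICAR, against 12.04 and 12.10 with vehicle. The groups did not overlap, and the 2 arrays of a group lay much closer together than the groups did. The means were 11.53 ± 0.05 with AICAR and 12.07 ± 0.04 with vehicle (SD, n = 2 each), a difference of -0.54 (95% confidence interval -0.73 to -0.34, SE 0.0815, limma adjusted p = 0.0307), or 1.45-fold lower. The other probe set, 209773_s_at, read 11.36 and 11.39 with AICAR, against 11.74 and 11.62 with vehicle. It too was lower on both AICAR arrays, by a smaller amount that did not pass (log2 -0.31, interval -0.51 to -0.10, adjusted p = 0.107). Left without any 1 of the 4 arrays, the difference of 201890_at stayed between -0.58 and -0.50, but the adjusted p became 0.105 to 0.195; those fits have fewer residual degrees of freedom, and they called between 0 and 1 of all 38229 probe sets.

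RRM1, the large subunit that holds the active site and the sites for allosteric control, had negative differences in both probe sets, and neither passed. Probe set 201476_s_at read 9.20 and 9.25 (log2) with AICAR, against 9.67 and 9.56 with vehicle, a difference of -0.39 (interval -0.60 to -0.19, limma adjusted p = 0.0600). Probe set 201477_s_at read 11.03 and 11.17 with AICAR, against 11.31 and 11.41 with vehicle, a difference of -0.26 (interval -0.48 to -0.04, adjusted p = 0.180). In both, each AICAR array lay below each vehicle array. RRM1 did pass under some alternatives. With the mean of its probe sets in a fit of 1 value a gene, it differed by -0.33 (adjusted p = 0.0301), where 5% of genes were lower. With variances moderated by a trend both its probe sets were called lower (adjusted p = 0.00584 and 0.0262), where 7.36% of all probe sets were.

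RRM2B, the p53-inducible small subunit that serves resting cells and mitochondria, had a positive difference that did not pass. Its only probe set, 223342_at, read 9.89 and 10.09 (log2) with AICAR, against 9.83 and 9.92 with vehicle. The groups overlapped, and the difference was 0.12 (interval -0.12 to 0.36, limma adjusted p = 0.552). The log2 ratio of RRM2 to RRM2B within an array, set to 0 at the vehicle mean, was -0.59 and -0.72 on the AICAR arrays and 0.02 and -0.02 on the vehicle arrays. That ratio, with RRM2 read by 201890_at, was therefore lower on both AICAR arrays, by 0.66 on average. This untested value does not show that RRM2B stayed the same. The ratio of RRM2 (201890_at) to RRM1 (201477_s_at) was -0.25 and -0.31 on the AICAR arrays, and 0.03 and -0.03 on the vehicle arrays. With the other probe sets the order was reversed. RRM2 209773_s_at differed by -0.31 and RRM1 201476_s_at by -0.39. Which subunit changed more thus depends on the probe sets taken. The ratios given were among 5 such pairs, picked after the values were seen. An exact permutation test of 2 against 2 arrays cannot give a two-sided p below 0.333, so no ratio was tested.

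Upstream sequence is shown for RRM2 and RRM1, the subunits of the S phase enzyme, for TK1 as the salvage gene that depends most on the cell cycle, and for DUT, which held the most matches to an E2F motif. Each line gives the 250 bases before the annotated start that lies farthest downstream, from RefSeq on GRCh38.p14, 5′ to 3′ on the gene's strand, with motif matches in capitals. RRM2 is at chr2:10122489-10122738 on the plus strand, RRM1 at chr11:4094435-4094684 on the plus strand, TK1 at chr17:78187053-78187302 on the minus strand and DUT at chr15:48331947-48332196 on the plus strand.
RRM2: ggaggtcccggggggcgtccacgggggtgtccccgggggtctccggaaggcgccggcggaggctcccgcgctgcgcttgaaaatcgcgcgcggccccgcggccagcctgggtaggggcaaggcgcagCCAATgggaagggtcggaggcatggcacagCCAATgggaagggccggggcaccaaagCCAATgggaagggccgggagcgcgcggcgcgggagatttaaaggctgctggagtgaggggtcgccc
RRM1: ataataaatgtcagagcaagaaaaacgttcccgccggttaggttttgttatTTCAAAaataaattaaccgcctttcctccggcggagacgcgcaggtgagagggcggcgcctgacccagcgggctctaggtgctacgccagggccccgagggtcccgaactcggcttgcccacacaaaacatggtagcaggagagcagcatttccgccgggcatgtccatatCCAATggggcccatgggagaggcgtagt
TK1: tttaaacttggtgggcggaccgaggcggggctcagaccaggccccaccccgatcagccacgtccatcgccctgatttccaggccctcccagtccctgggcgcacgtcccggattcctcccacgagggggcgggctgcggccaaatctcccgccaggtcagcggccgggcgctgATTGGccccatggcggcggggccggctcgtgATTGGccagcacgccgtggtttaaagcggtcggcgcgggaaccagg
DUT: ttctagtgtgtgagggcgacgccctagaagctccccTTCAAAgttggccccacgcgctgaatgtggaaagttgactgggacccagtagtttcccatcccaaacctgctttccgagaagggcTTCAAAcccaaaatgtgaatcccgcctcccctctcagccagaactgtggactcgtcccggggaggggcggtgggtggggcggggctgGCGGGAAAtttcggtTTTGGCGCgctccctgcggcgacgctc

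The capitals mark CCAAT, the core bound by NF-Y, TTTGAA, known from cell cycle genes as the CHR element, and TTTCGCGC, TTTGGCGC, TTTCCCGC or TTTGCCGC, forms of the E2F site, each searched on both strands; no matches overlapped. RRM2 held 3 CCAAT boxes, which begin 123, 93 and 66 bases before the start, and 3 or more were found in 3.26% of 35116 promoter windows of 300 bases. RRM1 held 1 CCAAT box and 1 TTTGAA on the other strand, and TK1 held 2 CCAAT boxes on the other strand. DUT held 2 E2F matches, 42 and 27 bases before the start, and 2 matches to TTTGAA. These counts depend on the start chosen. In 1 further RRM2 window CCAAT was found 1 time, and 1 further TK1 window and 3 further DUT windows held 0 matches to any of the motifs. At least 1 match was present in 34.6% of all windows for CCAAT, 15.2% for TTTGAA and 3.31% for the E2F forms. Of the 9 members with a window used here, 5 held CCAAT, 2 TTTGAA and 2 an E2F form (DUT, and DCK after its start). RRM2B is the member not counted, because windows on its chromosome were left out. A match is a description of letters and says nothing of binding, and RRM2, RRM1 and TK1 showed no E2F form in these windows. TK2 and DCTD held none of the motifs.

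The thymidine kinases had differences of opposite sign, TK1 negative and TK2 positive, and neither passed. TK1, the cytosolic enzyme that cycling cells make from the G1/S boundary on, read 9.92 and 9.77 (log2) with AICAR, against 10.02 and 9.99 with vehicle, in probe set 1554408_a_at (difference -0.16, interval -0.37 to 0.06, limma adjusted p = 0.386). In probe set 202338_at it read 9.71 and 9.51 with AICAR, against 9.67 and 9.61 with vehicle (difference -0.03, interval -0.27 to 0.20, adjusted p = 0.889). The groups overlapped in the second probe set but not in the first. TK2, which supplies thymidine and deoxycytidine nucleotides inside mitochondria, was positive in all 4 probe sets, at 0.08 to 0.21. Its brightest probe set, 204276_at, read 8.58 and 8.71 with AICAR, against 8.53 and 8.34 with vehicle (difference 0.21, interval -0.03 to 0.46, adjusted p = 0.301). Probe set 204227_s_at read 7.50 and 7.45 with AICAR, against 7.26 and 7.34 with vehicle (difference 0.18, adjusted p = 0.291). AICAR lay above vehicle without overlap in these 2, while in 204277_s_at and 240300_at the groups overlapped.

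Among the enzymes that make dUMP, neither passed in the fit reported. DUT, the dUTPase that keeps uracil out of DNA, was negative in all 3 probe sets, and in each both AICAR arrays lay below both vehicle arrays. Probe set 208956_x_at read 12.28 and 12.20 (log2) with AICAR, against 12.45 and 12.49 with vehicle (difference -0.23, interval -0.43 to -0.04, limma adjusted p = 0.176). Probe set 209932_s_at read 12.00 and 11.76 with AICAR, against 12.13 and 12.19 with vehicle (difference -0.28, adjusted p = 0.195), so its AICAR arrays differed from each other nearly as much as the groups did. The third, 208955_at, differed by -0.08 (adjusted p = 0.615). With the variance trend 208956_x_at and 209932_s_at were called lower (adjusted p = 0.00971 and 0.0260). DCTD is the dCMP deaminase. Its 3 probe sets differed by -0.04 to 0.08 with adjusted p of 0.653 to 0.849, and only 210137_s_at, at 8.99 and 9.02 with AICAR against 8.98 and 8.88 with vehicle, did not overlap.

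DTYMK, the kinase through which all dTTP must pass, had negative differences in its 2 brightest probe sets, and neither passed. Probe set 203270_at read 9.89 and 9.78 (log2) with AICAR, against 10.15 and 10.07 with vehicle (difference -0.27, interval -0.48 to -0.06, limma adjusted p = 0.150). Probe set 1553984_s_at read 10.84 and 10.77 with AICAR, against 10.98 and 11.02 with vehicle (difference -0.19, adjusted p = 0.248). Neither overlapped between groups, and with the variance trend 203270_at was called lower (adjusted p = 0.0310). The remaining probe sets differed by -0.10 (1553983_at), 0.04 (1565694_at) and, in the dim 1565693_at, 0.04.

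DCK starts the salvage of deoxycytidine and also activates several nucleoside drugs. It read 9.83 and 10.07 (log2) with AICAR, against 10.09 and 10.18 with vehicle, in 203302_at (difference -0.19, interval -0.44 to 0.06, limma adjusted p = 0.373). The groups did not overlap, but AICAR replicate 2 lay close to vehicle replicate 1. SAMHD1, the triphosphohydrolase that limits deoxynucleotide pools, was read by 6 probe sets, of which 3 lay below the bound for dim probe sets. The brightest, 235529_x_at, read 7.33 and 7.37 with AICAR, against 7.40 and 7.47 with vehicle (difference -0.08, adjusted p = 0.623). The other tested probe sets differed by -0.23 (234987_at) and -0.15 (235964_x_at), with overlapping groups. In 234987_at the AICAR arrays themselves read 4.91 and 5.67, farther apart than the groups, and its interval ran from -0.90 to 0.45. The 3 dim probe sets differed by -0.19, -0.17 and 0.08.

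**Figure D2:**
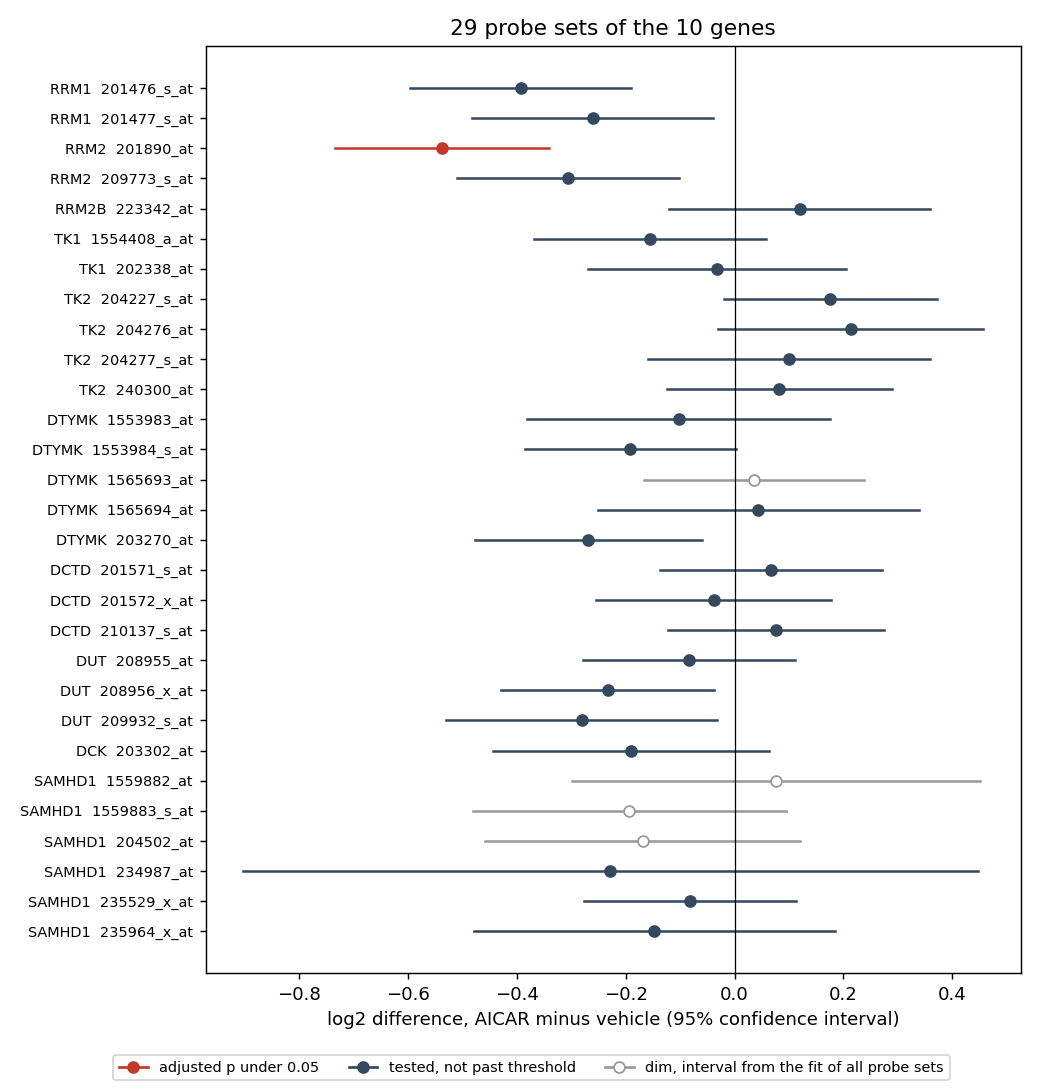
Log2 difference, AICAR minus vehicle, with its 95% confidence interval for all 29 probe sets of the 10 genes, grouped by gene; open grey points are the 4 dim probe sets. RRM2 201890_at at -0.54 is the probe set past the threshold, the intervals of RRM1 and RRM2 lie wholly below 0, as do 2 of DUT and 1 of DTYMK, and those of TK2 and RRM2B lie mostly above 0 but include it.

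Genes around the members were counted by the probe set with the highest mean, where 1.84% of genes were lower and 1.98% higher and the median of all genes was 0.02. Among thymidylate synthesis and folate genes 0 of 4 tested passed (limma). TYMS, the thymidylate synthase that feeds DTYMK, read 12.47 and 12.57 (log2) with AICAR, against 12.59 and 12.63 with vehicle (difference -0.09, adjusted p = 0.593). The folate enzyme MTHFD1 differed by -0.20 (adjusted p = 0.211). Of 7 genes of the thioredoxin and glutaredoxin systems, grouped here as reductase electron donors, 0 passed. Their range was narrow, from thioredoxin TXN at -0.07 to mitochondrial TXN2 at 0.15. Not all of them act on the reductase directly. Of 11 nucleotide kinases 0 passed. NME1, which makes nucleoside triphosphates from diphosphates, differed by -0.18 (adjusted p = 0.283), AK1 by -0.27 (0.216) and NME6 by 0.22 (0.326).

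In salvage and breakdown 1 of 12 tested genes rose and 0 fell. UPP1, uridine phosphorylase, which releases uracil from uridine, read 7.85 and 7.78 (log2) with AICAR, against 7.21 and 6.99 with vehicle. It was 1.64-fold higher (log2 0.72, SE 0.102, limma adjusted p = 0.0272). DPYD, which starts the breakdown of uracil and thymine, differed by 0.19 in its brightest probe set (adjusted p = 0.292). Another of its 3 probe sets, dim and singled out after its values were seen, averaged 5.23 with AICAR and 4.10 with vehicle (difference 1.13, n = 2 each), and passed in the fit without the dim filter (adjusted p = 0.0217). Of 6 genes that clean the nucleotide pool 0 passed. DNPH1, which hydrolyses hydroxymethyl-dUMP, came nearest at 0.39 (adjusted p = 0.0541), and NUDT18 differed by 0.16 (0.469). With the 50th percentile filter, quantile normalization, the variance trend or an adjusted p under 0.1, 1 gene of this list was called higher. Over all probe sets, calls higher then rose from 545 to 886, 713, 1603 and 1230. The fit of 1 highest-mean probe set a gene also called 1. Without the dim filter, with median centring, with the mean of probe sets or with the replicate block 0 passed. Of 5 carriers 0 passed, with the mitochondrial pyrimidine nucleotide carriers SLC25A33 at -0.22 (adjusted p = 0.180) and SLC25A36 at 0.14 (0.394). Mitochondrial DNA upkeep, the process that TK2 and RRM2B serve, had 0 of 10 genes past the threshold, with 5 positive and 5 negative. MPV17, an inner membrane protein needed for mitochondrial deoxynucleotide pools, differed by 0.32 (adjusted p = 0.135), and the polymerase subunit POLG2 by 0.25 (0.174).

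Among genes listed as regulators of the reductase and of thymidine kinase 3 of 16 tested fell and 0 rose, with 13 negative differences and a median of -0.18. That list also holds general cell cycle genes, CDC20 among them, whose part in regulating these enzymes was not tested. E2F3, a transcription factor of S phase genes, read 9.63 and 9.58 (log2) with AICAR, against 10.03 and 10.09 with vehicle (log2 -0.45, limma adjusted p = 0.0407). CCNF, cyclin F, which targets RRM2 protein for destruction in G2, read 8.22 and 8.20 with AICAR, against 8.69 and 8.66 with vehicle (log2 -0.46, adjusted p = 0.0379). CDC20, an activator of the anaphase-promoting complex, was 1.82-fold lower (log2 -0.86, SE 0.105, adjusted p = 0.0206). E2F1 was at 0.13 and did not pass (adjusted p = 0.447). RRM2 protein was not measured.

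Of 24 S phase replication genes tested 7 fell and 0 rose, with 20 negative differences and a median of -0.23. The origin licensing factor CDC6 was 1.59-fold lower (log2 -0.67, limma adjusted p = 0.0246). The helicase subunits MCM5 (log2 -0.64, adjusted p = 0.0300), MCM7 (-0.56, adjusted p = 0.0285) and MCM2 (-0.49, adjusted p = 0.0358) also fell. These 4 are the most changed of the list. The difference of RRM2, -0.54, was more negative than that of 21 of the 24 genes and less negative than that of 3, and the part of these genes in it was not tested.

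Of 15 p53 targets tested 2 rose and 0 fell. TP53I3 was 1.46-fold higher (log2 0.54, adjusted p = 0.0310) and the stress cytokine GDF15 1.51-fold higher (log2 0.59, adjusted p = 0.0473). The p53 targets CDKN1A, at 0.17 (adjusted p = 0.370), and MDM2, at -0.33 (0.120), did not pass, nor did RRM2B. In the fits that left out 1 array 0 of the 14 called genes of all lists, RRM2 among them, passed (adjusted p = 0.0593 to 0.264). Without the filter on dim probe sets E2F3 (0.0601), CCNF (0.0552), MCM2 (0.0514) and GDF15 (0.0631) did not pass, nor did they with the replicate block (0.0680, 0.0637, 0.0581 and 0.0592), and S phase replication genes called lower were 3 in both. GDF15 also missed it with median centring (0.0513) and with the mean of its probe sets (0.0912). In the other direction, averaging the probe sets of each gene called 11 S phase genes and 5 regulators lower, where 5% of all genes were lower, and the variance trend 12 and 7, where 7.1% were. Since 1.84% of genes were lower as first counted, calls rose over all genes too under these settings.

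**Figure D3:**
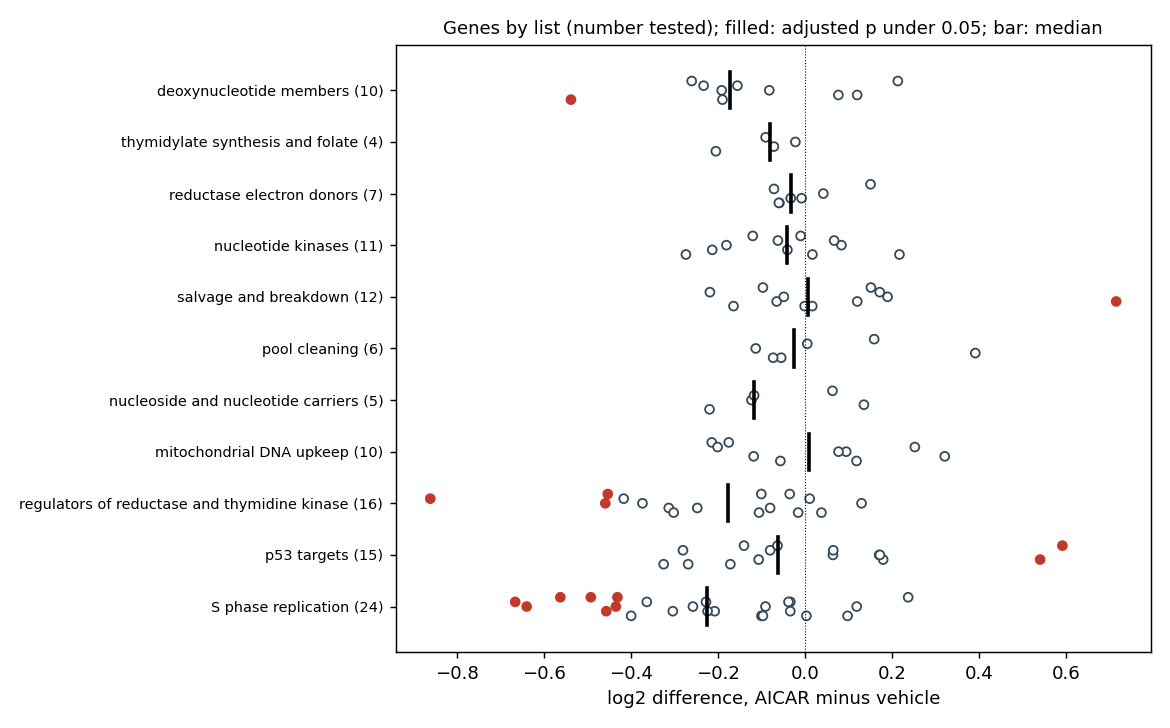
Log2 difference, AICAR minus vehicle, for each tested gene of the members and of 10 related lists, 1 point a gene by its highest-mean probe set; filled points passed an adjusted p of 0.05 and the bar is the list median. S phase replication genes have a median of -0.23 and 7 filled points, all negative, whereas UPP1 at 0.72 is the point farthest to the right.

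The genes whose 4 array values, each centred on its own mean, lay nearest to those of RRM2 were ZWINT, ACSM3, ACADM, HNRNPA3 and DDX42, out of 16166 genes searched. ACSM3 and ACADM are enzymes of medium-chain fatty acids, HNRNPA3 binds RNA and DDX42 is an RNA helicase. ZWINT, a kinetochore protein, was nearest at a distance of 0.02 (log2). It read 11.53 and 11.61 with AICAR, against 12.10 and 12.14 with vehicle. The other 4 lay within 0.05, and their differences ran from -0.53 to -0.51. With 4 arrays, likeness here means a fall of about the same size with little spread between replicates.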

How the data were processed

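Total RNA was labelled with biotin and hybridised to 1 array per sample, per the labels' protocols. The authors deposited normalized log2 values, 1 per probe set and array. Affymetrix Expression Console is named in the submitters' processing notes; no algorithm or background step is given in the sources used here, so differences at low signal may be understated. Values ran from 2.95 to 15.3 and were used as deposited. Precision is limited by having 2 arrays per group.

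Of 54675 probe sets 62 controls were left out. The platform annotation gave 41097 probe sets 1 symbol, 1801 several symbols and left 11721 unlisted. Symbols of 41043 were looked up by Entrez ID in the RefSeq table of GRCh38.p14, from which the promoter windows also come. Probe sets with a mean below the 30th percentile were left out as dim, leaving 38229, which entered 1 limma fit (version 3.58.1, R 4.3.3; lmFit, then eBayes), with Benjamini-Hochberg adjustment, two-sided. Fitting probe sets separately tests more features than 1 value a gene. Fell, rose and called mean an adjusted p under 0.05.

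All probe sets of the members are described. In other lists up to 4 called genes with the largest change are named, or the 2 most changed if none was called, with TYMS, NME1, CDKN1A, MDM2, E2F1 and CCNF always named; 1 further item of that rule is not reported here. The members, lists and tests were chosen with earlier results of these data known. Tested on simulated data for AICAR minus vehicle (38229 probe sets, 200 changed, 20 simulations), the fit recovered 2.35% of changes of 0.5 and 82.6% of changes of 1 (log2), with 4.97% of calls false. Alternatives were other dim filters, quantile normalization, median centring, a variance trend, 1 value a gene, an adjusted p under 0.1, a replicate block and leaving out each array in turn. The replicate numbers were not taken as pairs: differences between replicates 1 and 2 correlated at r = -0.07 between the groups across probe sets.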

Additional observations from a re-analysis of the deposited data

How the results depend on the processing

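With the replicate number as a block, 509 probe sets were lower and 322 higher, and RRM2 201890_at kept its call; the numbers do not pair the samples. Without the dim filter 485 were lower and 327 higher, with a filter at the 50th percentile 1506 and 886, with a variance trend 2812 and 1603, and at an adjusted p under 0.1 2090 and 1230. Left without 1 array, 0 were lower and 0 to 1 higher. Member probe sets lower were 2 with the 50th percentile filter, 7 with the trend and 2 at an adjusted p under 0.1, and 2 genes (RRM1, RRM2) with the mean of all probe sets. They were 0 without any 1 array. No member was higher under any alternative run. Apart from the lost call of RRM2 without 1 array, 267 of the values of member probe sets under alternatives kept direction and side of the threshold, 9 newly passed (in RRM1, RRM2 209773_s_at, DUT and DTYMK 203270_at) and 11 changed sign. With quantile normalization TK1 202338_at was 0.00074 and DCTD 201572_x_at 0.00042. The other 9 came from leaving out 1 array, where TK1 202338_at ran from -0.14 to 0.072, DCTD 201572_x_at from -0.12 to 0.039, TK2 204277_s_at from -0.013 to 0.21, DTYMK 1553983_at from -0.22 to 0.018, DTYMK 1565694_at from -0.080 to 0.17, SAMHD1 234987_at from -0.61 to 0.15 and SAMHD1 235964_x_at from -0.35 to 0.053. The causes were not tested. In the simulations, where 200 probe sets changed, the fit recovered 2.35% of changes of 0.5 (log2). In the data more were called, 924 lower and 545 higher, so that share need not hold here. Some changes under 0.5 did pass, such as MCM2 at -0.49 and E2F3 at -0.45. Members that missed the threshold are still not shown to be unchanged.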

Other observations

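Some neighbours of the deoxynucleotide genes had probe sets that disagreed. The 5 genes with the widest range were DPYD, E2F2, GDF15, DNPH1 and MDM2. The 3 probe sets of DPYD ranged from -0.29 to 1.13 (log2, AICAR minus vehicle), both in dim probe sets, with 0.19 in the brightest. The 3 probe sets of E2F2 ranged from -0.42, in the brightest, to 0.29. The brightest probe set of the mitochondrial pyrimidine nucleotide carrier SLC25A36 differed by 0.14, while 4 of its 5 probe sets were negative, down to -0.37. The 3 probe sets of DNPH1 ranged from -0.22 to 0.39. The 10 probe sets of MDM2 ranged from -0.37 to 0.18, and 6 were negative. The 3 probe sets of GDF15 ranged from -0.07 to 0.59, and with their mean it differed by 0.21 (limma adjusted p = 0.0912). The 3 probe sets of TYMS agreed in sign, from -0.42 to -0.09, with the brightest at -0.09.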
